A study of Mus musculus with 15 samples.

Results

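The glycolysis and gluconeogenesis enzymes described here are the 50 genes, of 27174 in the deposited table, whose KEGG pathway annotation in that table names this pathway. Of these, 48 passed the filter on low values; Ldhc and G6pc did not. The RNA came from isolated brain microvessels of adult wild-type mice (BL6/57 in the labels), taken 21 days after tumour cells were transplanted. Sham-operated healthy mice gave the sham group. Mice with glioblastoma that received control IgG gave both the contralateral group, from the hemisphere without tumour, and the untreated tumour group, from the tumour-bearing region. Tumour-bearing region of mice given aflibercept, a soluble decoy receptor for VEGF, with AMG386, a peptibody against angiopoietins, gave the dual therapy group. The triple therapy group received an antibody against PD-1 in addition. Each of the 5 groups has 3 libraries, and each library pools 3 mice, so differences between single animals are not seen. Which tumour cells were transplanted is not stated in the labels.

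Glycolysis converts glucose to pyruvate in the cytosol and yields ATP without oxygen. Lactate dehydrogenase then reduces pyruvate to lactate, or pyruvate enters the mitochondria, where the pyruvate dehydrogenase complex converts it to acetyl-CoA. Several steps exist as isoform genes with a preferred tissue: Hk1, Aldoa and Eno1 are broadly expressed, Eno2 is the neuronal and Eno3 the muscle enolase, Aldoc is the brain aldolase, and Hk2 is induced in growing and hypoxic cells. Endothelial cells are known to rely strongly on glycolysis. Many glycolytic genes are classical targets of the hypoxia-inducible factor HIF-1, whose core recognition letters are ACGTG or GCGTG.

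Promoter sequence is shown for the 3 enzymes of the path from glucose to pyruvate that rose with the smallest adjusted p in untreated tumour against contralateral tissue. The RefSeq table (build GRCm38.p6) held promoters of 45 of the 50 genes. Each sequence is the 250 bases before the start that RefSeq gives, 5′ to 3′ on the gene's strand. For Eno3 they end at 70657175, upstream of the gene start in the deposited annotation (70657202). Capitals mark ACGTG or GCGTG on either strand; on the opposite strand these read CACGT and CACGC. The letters CACGTG would count on both strands.
Hk2 (chr6:82774455-82774704, minus strand): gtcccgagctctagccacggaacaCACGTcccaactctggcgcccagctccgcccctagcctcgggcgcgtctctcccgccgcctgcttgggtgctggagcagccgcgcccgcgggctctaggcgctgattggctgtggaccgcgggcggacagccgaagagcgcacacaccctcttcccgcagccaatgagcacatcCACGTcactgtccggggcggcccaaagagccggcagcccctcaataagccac
Hk3 (chr13:55021386-55021635, minus strand): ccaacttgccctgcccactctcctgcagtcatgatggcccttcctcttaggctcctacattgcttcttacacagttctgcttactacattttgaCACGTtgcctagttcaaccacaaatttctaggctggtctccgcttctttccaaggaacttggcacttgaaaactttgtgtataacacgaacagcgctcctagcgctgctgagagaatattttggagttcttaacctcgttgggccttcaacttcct
Eno3 (chr11:70656926-70657175, plus strand): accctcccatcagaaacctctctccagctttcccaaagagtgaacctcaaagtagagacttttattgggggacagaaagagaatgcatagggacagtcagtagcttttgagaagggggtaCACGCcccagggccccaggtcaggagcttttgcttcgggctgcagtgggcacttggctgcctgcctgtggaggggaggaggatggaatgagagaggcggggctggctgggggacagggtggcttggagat
The Hk2 promoter held 2 matches, and those of Hk3 and Eno3 held 1 each. Of all 32851 promoters in the table, 38.6% held at least 1 match in these 250 bases. Among the promoters of the enzymes the share was 36 of 59 (61%). Of 8 genes that rose in untreated tumour against contralateral tissue and have a promoter here, 6 held a match, and of 9 that fell, 7 did. Counted by gene, the share was 41.5% over all genes in the table and 64.4% over the enzymes. A match is a run of letters and not evidence of binding.

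The values are the authors' normalised scores, whole numbers comparable between libraries. They summed to between 11134670 and 15799111 per library. The 50 enzymes together took 0.241% to 0.253% of the score in sham and 0.241% to 0.250% in contralateral libraries. They took 0.183% to 0.216% in untreated tumour, 0.199% to 0.216% after dual and 0.235% to 0.267% after triple therapy. Mitochondrial ribosomal RNA, which enters the same total, took 21.5% to 33.2% in untreated tumour and at most 17.4% in any library of the other groups; its part in the difference was not tested. The 15 endothelial identity genes summed to 105473 to 151654 in untreated tumour and 141221 to 202985 elsewhere. None was at 0 in all libraries. The sums show endothelial RNA in each library but do not measure how pure the vessels were. In this bulk tissue, fewer cells of a type and less RNA per cell cannot be told apart.

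Across the 5 groups, 21 of the 48 tested enzymes (43.8%) differed in limma's F-test at an adjusted p below 0.05, against 43.5% of all 19668 genes tested. The enzymes as a group therefore did not stand out by their number of changes, and the description that follows is of which enzymes moved and how. The neuronal enolase Eno2 had the smallest p (adjusted p = 5.18e-08), followed by Hk2 (7.08e-07), Hk3 (1.53e-05) and Ldhb (1.78e-05).

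**Figure D1:**
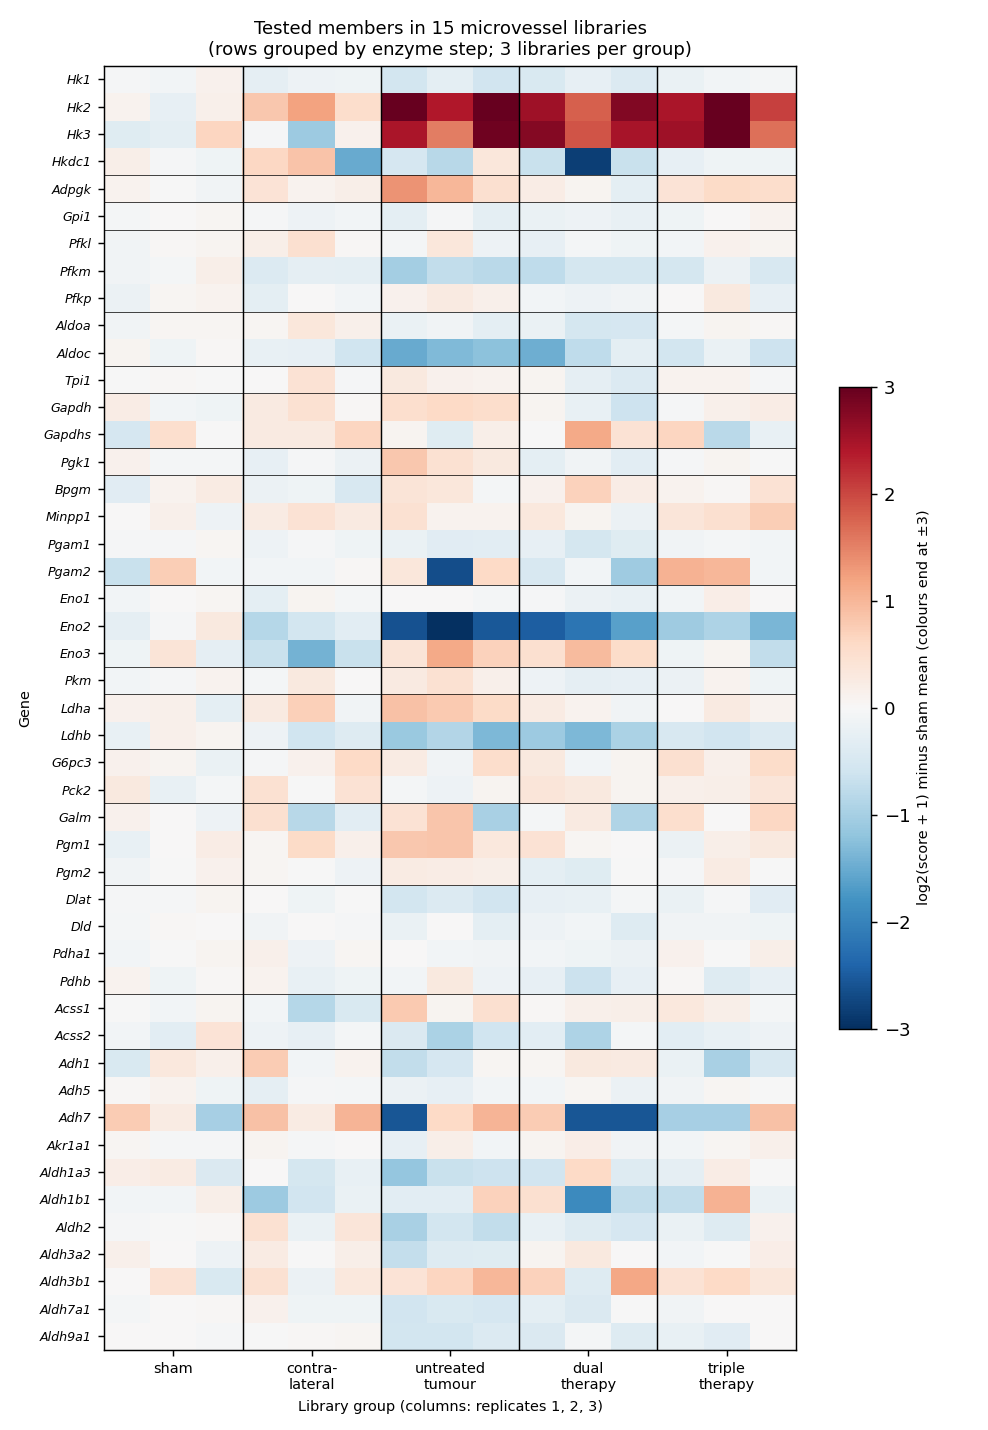
Level of 47 of the 48 tested enzymes (rows, grouped by enzyme step) in the 15 libraries (columns), as log2(score + 1) minus the mean of the 3 sham libraries; colours end at 3 in either direction. Hk2 and Hk3 are red and Eno2 is blue in the tumour-region libraries of all 3 treatment groups, while most other rows stay pale.

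Untreated tumour was compared with contralateral tissue to ask how vessels in the tumour differ from those on the other side of the brain. The inducible hexokinase Hk2 and the myeloid-enriched Hk3 rose several fold, and Eno3, Pgk1, Acss1, Adpgk, Bpgm and Ldha rose less. Eno2, Aldoc, Ldhb, Pfkm, Aldoa, Hk1, Dlat and 4 aldehyde dehydrogenase genes fell. In all, 8 of 48 enzymes (16.7%) rose, against 21.1% of all genes, and 11 (22.9%) fell, against 21.4% of all genes, so that 19 (39.6%) were called against 42.5% of all genes. The median log2 fold change was -0.10 for the enzymes and 0.01 for all genes. Groups did not overlap for 25 of 48 enzymes (52.1%) and for 49.7% of all genes.

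The first step, the phosphorylation of glucose that traps it in the cell, showed the largest rises. Hk2 (ENSMUSG00000000628, GRCm38 chromosome 6, 82725025 to 82774454) had scores of 36, 28 and 37 in sham, 59, 79 and 49 in contralateral and 335, 180 and 295 in untreated tumour libraries. All 3 tumour libraries lay above every sham and contralateral library, and contralateral above sham. Mean scores were 62.3 ± 15.3 in contralateral and 270.0 ± 80.5 in untreated tumour libraries (SD, n = 3). The rise was 2.08 ± 0.30 on the log2 scale (SE; limma adjusted p = 1.99e-05). Hk3 (chromosome 13, 55005985 to 55021385) read 19, 20 and 39 in sham, 24, 11 and 27 in contralateral and 138, 73 and 192 in untreated tumour. Its tumour libraries were again all higher, with replicate 2 the lowest of them, and the log2 fold change was 2.63 ± 0.43 (adjusted p = 8.25e-05).

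Adpgk, an ADP-dependent glucokinase of the endoplasmic reticulum, read 192, 154 and 163 in contralateral and 366, 286 and 201 in untreated tumour libraries (0.71 ± 0.19, adjusted p = 0.00678). Hk1, the broadly expressed hexokinase, moved the other way. It read 1956, 1911 and 2196 in sham, 1667, 1825 and 1839 in contralateral and 1375, 1659 and 1362 in untreated tumour. The fall against contralateral tissue was small (-0.28 ± 0.10, adjusted p = 0.0331). Per kilobase of exon Hk1 was nevertheless the most abundant hexokinase in every library, at 171.7 units in untreated tumour against 45.2 for Hk2 and 36.5 for Hk3. Hkdc1 stayed near the detection limit, with mean scores of 5.67 to 16.7 over the groups.

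Among the middle steps, Pfkm, the muscle-type phosphofructokinase that is also found in brain, read 637, 700 and 699 in contralateral and 422, 511 and 483 in untreated tumour libraries (-0.53 ± 0.12, adjusted p = 0.00231). Its groups did not overlap. Liver-type Pfkl (-0.19, adjusted p = 0.285) and platelet-type Pfkp (0.30, adjusted p = 0.0552) were not called. Aldolase splits fructose bisphosphate into 2 trioses. Aldoc, the brain isoform, read 775, 772 and 606 in contralateral and 320, 364 and 387 in untreated tumour libraries, so that every tumour library was lower (-1.0 ± 0.21, adjusted p = 7.57e-04). Aldoa, the main aldolase, fell from 2847, 3486 and 3020 to 2371, 2561 and 2240 (-0.38 ± 0.11, adjusted p = 0.00831). Gpi1 and Tpi1, the isomerases of these steps, had log2 fold changes of -0.11 and 0.03 and were not called (adjusted p = 0.362 and 0.872).

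Below the trioses, Gapdh, which oxidises glyceraldehyde phosphate, read 673, 543 and 526 in sham, 696, 796 and 587 in contralateral and 821, 879 and 839 in untreated tumour. The tumour libraries were the highest, but the difference from contralateral tissue was not called (0.30 ± 0.16, adjusted p = 0.136). Pgk1, the kinase that makes ATP from the next intermediate, read 231, 266 and 239 in contralateral and 478, 371 and 336 in untreated tumour (0.67 ± 0.14, adjusted p = 8.25e-04). Bpgm, which makes and breaks down 2,3-bisphosphoglycerate, rose by 0.48 ± 0.18 (adjusted p = 0.0379), while the mutase Pgam1 was not called (-0.17, adjusted p = 0.226). Pkm, the pyruvate kinase gene of most tissues, had means of 2683 ± 375.1 and 3111 ± 319.8 and was not called (0.22, adjusted p = 0.132).

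The 3 enolase genes went 3 ways. Eno2 (chromosome 6, 124760055 to 124769673) read 890, 1044 and 1304 in sham, 592, 726 and 850 in contralateral and 174, 124 and 181 in untreated tumour. Each group lay wholly below the one before it, and the fall against contralateral tissue was the largest of any tested enzyme called lower (-2.18 ± 0.21, adjusted p = 2.83e-07). Eno3 read 21, 12 and 21 in contralateral and 45, 76 and 55 in untreated tumour libraries (1.66 ± 0.34, adjusted p = 6.70e-04), but its sham libraries read 31, 45 and 28 and it was not called against sham (0.74, adjusted p = 0.0816). Eno1 had means of 793 ± 101.9 and 838.3 ± 24.7 and was not called (0.09, adjusted p = 0.557).

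The lactate dehydrogenase genes moved in opposite directions. Ldha encodes the subunit that favours lactate production, and Ldhb the subunit of oxidative tissues. Ldha averaged 1063 ± 172.4 in sham, 1326 ± 379.3 in contralateral and 1771 ± 196.4 in untreated tumour. Contralateral replicate 2, at 1727, overlapped the tumour libraries, which read 1950, 1803 and 1561 (0.45 ± 0.17, adjusted p = 0.0391). Ldhb read 672, 867 and 826 in sham, 710, 515 and 600 in contralateral and 364, 428 and 306 in untreated tumour, a fall in which the groups did not overlap (-0.73 ± 0.15, adjusted p = 7.73e-04). The testis gene Ldhc was listed at 0 in all sham, contralateral and triple therapy libraries, at 4, 5 and 3 in untreated tumour and at 0, 0 and 6 after dual therapy.

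Of the genes around the main path, the mitochondrial acetyl-CoA synthetase gene Acss1 rose by 0.91 ± 0.20 (adjusted p = 0.00109). Dlat, a subunit of the pyruvate dehydrogenase complex, read 528, 477 and 520 in contralateral and 357, 396 and 352 in untreated tumour (-0.46 ± 0.11, adjusted p = 0.00296). The other subunit genes Pdha1, Pdhb and Dld had log2 fold changes of -0.08, 0.10 and -0.11 and were not called. Aldehyde dehydrogenases oxidise reactive aldehydes, and 4 of 11 alcohol and aldehyde dehydrogenase genes fell, against 21.4% of all genes, and 0 rose, against 21.1%. The mitochondrial Aldh2 read 1771, 1798 and 1834 in sham, 2467, 1581 and 2311 in contralateral and 917, 1224 and 1072 in untreated tumour (-0.97 ± 0.16, adjusted p = 8.47e-05). Aldh3a2, which acts on fatty aldehydes, read 689, 574 and 660 against 353, 442 and 452 (-0.63 ± 0.13, adjusted p = 8.63e-04), and Aldh9a1 read 528, 545 and 552 against 362, 365 and 403 (-0.52 ± 0.12, adjusted p = 0.00204). Aldh7a1 had the smallest of the 4 falls (-0.47 ± 0.12, adjusted p = 0.00484).

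Of the genes of gluconeogenesis, the mitochondrial Pck2 and the broadly expressed glucose-6-phosphatase G6pc3 were measured and not called (adjusted p = 0.0875 and 0.985). G6pc, the liver glucose-6-phosphatase, had mean scores of 2 to 10.3 and was not tested.

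**Figure D2:**
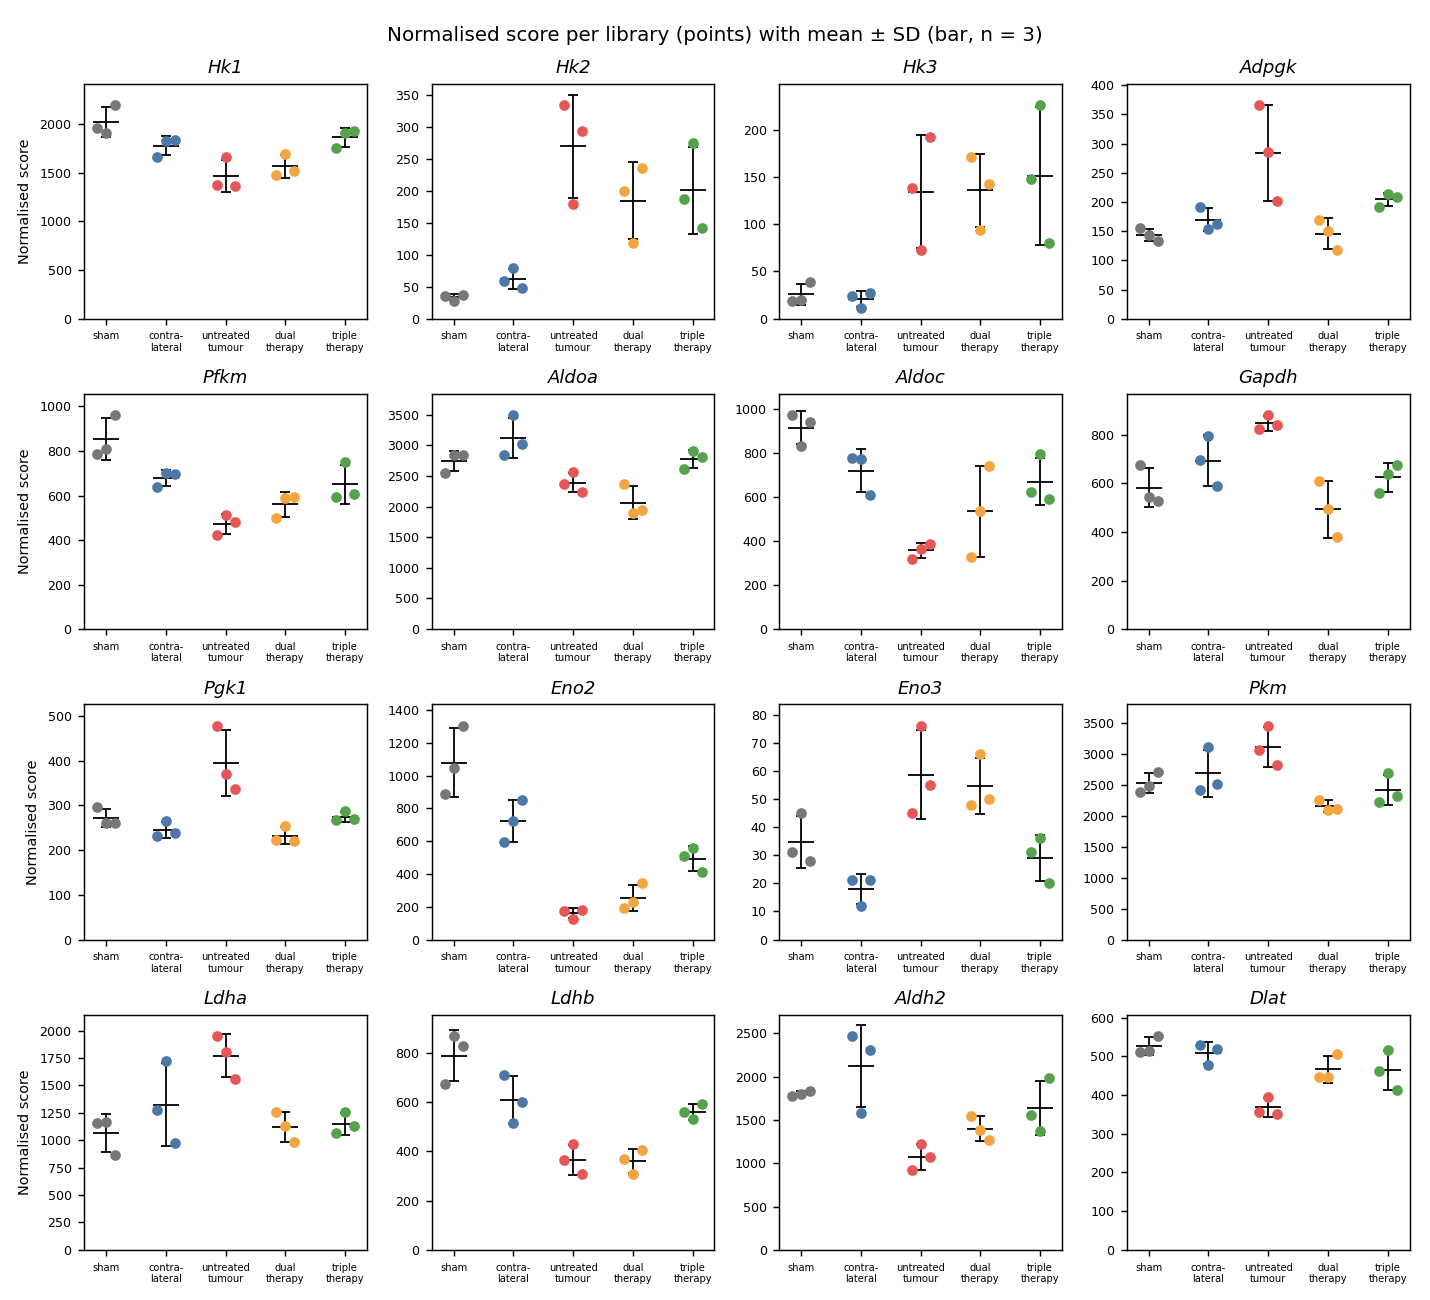
Normalised score of 16 enzymes in each library (points, coloured by group), with the mean ± SD of 3 libraries (bars). Hk2, Hk3 and Adpgk are highest in the tumour-region groups or the untreated tumour, Eno2, Aldoc, Pfkm, Ldhb and Aldh2 are highest in sham or contralateral libraries.

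Within a step, the isoform genes took different shares of the RNA per kilobase of exon. Hk1 made up 91.5% ± 1.29 (SD, n = 3) of the hexokinase signal in contralateral and 67.4% ± 10.2 in untreated tumour libraries, with Hk2 at 4.58% ± 1.05 and 17.6% ± 4.89 and Hk3 at 2.48% ± 1.05 and 14.1% ± 5.84. Eno1 took 47.4% ± 3.51 of the enolase signal in contralateral and 69.7% ± 1.76 in untreated tumour, where Eno2 dropped from 49.1% ± 3.15 to 15.2% ± 3.2. Ldha took 50.3% ± 9.69 of the lactate dehydrogenase signal in contralateral and 69.5% ± 2.73 in untreated tumour. These shares are descriptions without a test, and they do not depend on how libraries are scaled. Exon length here joins all annotated exons of a gene, so the size of a share depends on the annotation. Shares with Eno1 or Ldhb also carry the uncertainty from close copies described below.

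**Figure D3:**
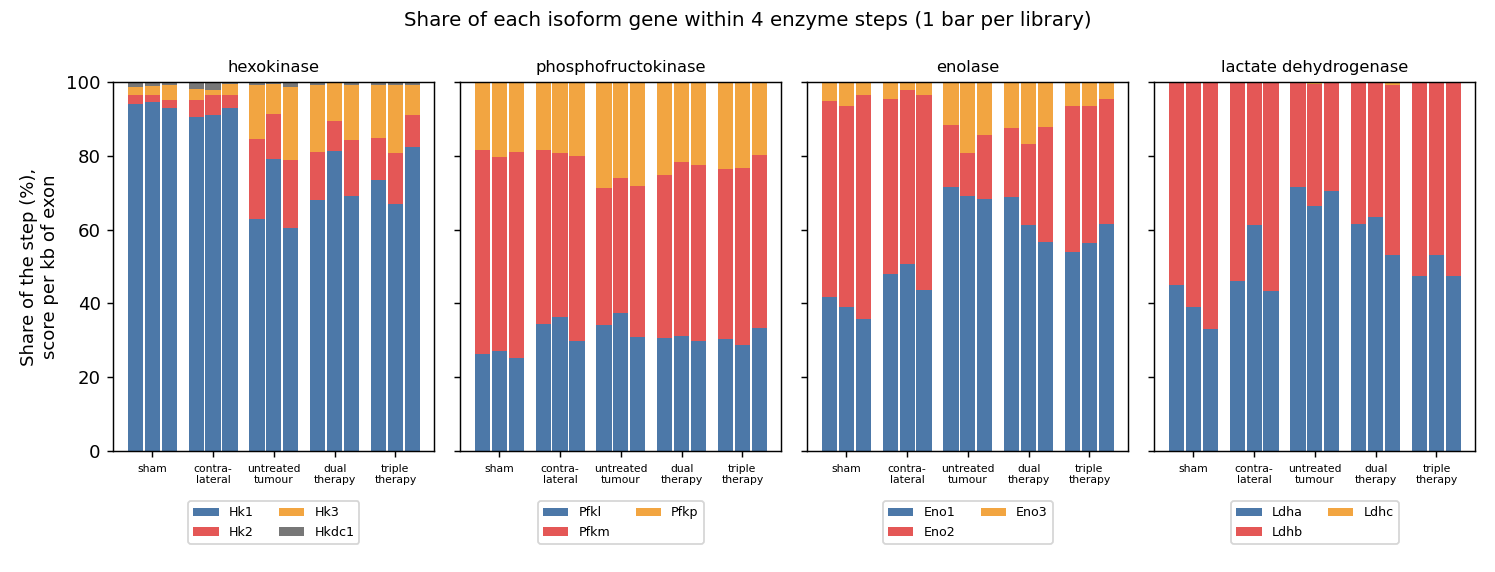
Share of each isoform gene in the summed score per kilobase of exon of 4 enzyme steps, 1 bar per library. Hk2 and Hk3 widen from the contralateral to the tumour-region libraries, and Eno2 narrows from 49.1% to 15.2% between contralateral and untreated tumour means.

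Markers of other cells moved in the same comparison. The 12 neuron genes summed to 14755 to 18091 in contralateral and 3121 to 5539 in untreated tumour libraries, and 11 fell. The 10 astrocyte genes summed to 36561 to 46618 and 16462 to 17970, with 5 fallen and 1 risen. The 12 monocyte and macrophage genes summed to 4681 to 5151 and 9638 to 12631, with 10 risen and 1 fallen. All 14 proliferation genes rose, from sums of 882 to 983 to sums of 7774 to 15660. All 10 pericyte genes fell, from sums of 55559 to 71532 to sums of 25036 to 29584, and 11 of 12 T and NK cell genes rose, from sums of 78 to 183 to sums of 1383 to 1533. Of 8 oligodendrocyte genes 1 fell, and 0 of 7 erythrocyte genes were called. No gene of these lists was at 0 in every library. Their part in the changes of the enzymes was not tested.

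Of the 15 endothelial identity genes, 1 rose and 4 fell in this comparison, so scaling to them uses a reference that itself moved. With each library scaled to these genes, the median of all genes shifted by 0.46 in this comparison. With this scaling 13 enzymes rose and 1 fell, and rises made up 82.2% of all calls in place of 49.6%. Aldoa (0.08) and Hk1 (0.18) then had positive values without a call, whereas Hk2 (2.53), Hk3 (3.07) and Eno2 (-1.72) kept direction and call. The calls of Ldha, Bpgm and Hk1 depended on single libraries. Leaving out contralateral replicate 1 or 3 or untreated replicate 1 or 2 ended the calls of Ldha (adjusted p = 0.0752 to 0.252) and Bpgm (0.0551 to 0.159). Leaving out contralateral replicate 2 or 3 or untreated replicate 1 or 3 ended that of Hk1 (0.0837 to 0.118), and Adpgk lost its call without untreated replicate 1 (0.0510). Quantile normalisation ended the calls of Hk1 (adjusted p = 0.255) and Aldoa (0.175). Without untreated replicate 1, 5 enzymes rose.

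Against sham tissue, 8 enzymes (16.7%) rose and 12 (25.0%) fell, where 23.3% of all genes rose and 23.3% fell. That made 20 enzymes called (41.7%) against 46.6% of all genes, and groups did not overlap for 24 (50%) against 54.2% of all genes. These comparisons share the untreated tumour libraries. Hk2 rose from a sham mean of 33.7 ± 4.93 (SD, n = 3) by 2.93 ± 0.30 (adjusted p = 2.60e-07), and Ldha by 0.74 ± 0.17 (adjusted p = 0.00146). Gapdh (0.55 ± 0.16, adjusted p = 0.00751) and Pgm1 (0.65 ± 0.19, adjusted p = 0.00954) rose here. They had log2 fold changes of 0.30 and 0.39 without a call against contralateral tissue. Pkm also rose (0.30 ± 0.11, adjusted p = 0.0373), but not when sham replicate 1 or 2 or untreated replicate 1 or 2 was omitted (adjusted p = 0.0568 to 0.139). Eno2 fell by 2.75 ± 0.21, Aldoc by 1.35 ± 0.21 and Ldhb by 1.11 ± 0.15 on the log2 scale. With endothelial identity scaling 5 enzymes fell in place of 12, and Pgm1 lost its call without sham replicate 1 (adjusted p = 0.0536). Of the 15 endothelial identity genes themselves, 1 rose and 5 fell. Of the marker lists, 12 of 12 neuron, 9 of 10 pericyte, 7 of 8 oligodendrocyte, 7 of 7 erythrocyte and 5 of 10 astrocyte genes fell. All 14 proliferation genes, 11 of 12 T and NK cell genes and 9 of 12 macrophage genes rose, and 1 macrophage gene fell. Their part in the enzyme changes was not tested.

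The hemisphere without tumour was set against sham to see whether its vessels also differ. No enzyme was called, 0 of 48 in either direction in limma, where 0.254% of all genes rose and 0.178% fell (0.432% in all), and 6 enzymes (12.5%) had an unadjusted p below 0.05, against 11.9% of all genes. The alternative fits with limma, listed under the processing, also called 0. Groups did not overlap for 9 enzymes (18.8%) and for 21.0% of all genes. Among these 9 the contralateral libraries of Eno3 all lay below sham (-0.92, adjusted p = 0.266) and those of Hk2 all above it (0.85, adjusted p = 0.229). Eno2 lay lower, from 1079 ± 209.2 to 722.7 ± 129.0 (-0.58, adjusted p = 0.258). The 12 neuron genes summed to 22955 to 31011 in sham and 14755 to 18091 in contralateral libraries, and 1 fell. Sums were also lower for oligodendrocytes (21795 to 29852, then 13451 to 14053) and astrocytes (49904 to 73636, then 36561 to 46618). The same held for erythrocytes (3280 to 4130, then 1433 to 2949). Besides these, 1 of 12 macrophage genes rose, 0 other list genes were called, and sums of the remaining lists overlapped. The part of these cells was not tested.

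Dual therapy was compared with untreated tumour to ask what blockade of VEGF and angiopoietins does to tumour vessels. Pgk1, Gapdh, Pkm, Ldha, Adpgk and the phosphoglucomutase gene Pgm2 fell. Aldh3a2, Eno2 and Dlat rose. Of the other genes between Gapdh and lactate, Pgam1 (-0.10), Bpgm (0.13), Eno1 (-0.14), Eno3 (-0.08) and Ldhb (-0.02) were not called. In all 6 of 48 enzymes (12.5%) fell, against 10.2% of all genes, and 3 (6.25%) rose, against 12.1%. That is 9 called (18.8%), against 22.3% of all genes, and groups did not overlap for 15 (31.2%), against 30.7% of all genes. The median log2 fold change was -0.07 for the enzymes and -0.01 for all genes.

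Pgk1 read 222, 254 and 220 after dual therapy, all below the 478, 371 and 336 of untreated tumour (-0.75 ± 0.14, adjusted p = 0.00113). Gapdh read 611, 493 and 377 (-0.80 ± 0.16, adjusted p = 0.00157), below all 3 untreated libraries and with a mean of 493.7 ± 117.0 against 693 ± 104.5 in contralateral tissue. Adpgk read 169, 151 and 118 (-0.93 ± 0.19, adjusted p = 0.00261). Pkm fell from 3111 ± 319.8 to 2155 ± 91.9 (-0.53 ± 0.11, adjusted p = 0.00315) and Ldha from 1771 ± 196.4 to 1122 ± 135.5 (-0.66 ± 0.17, adjusted p = 0.00961). These 5 falls kept their call under all 14 alternatives run.

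The hexokinases that marked the tumour region were not called lower. Hk2 read 201, 119 and 236 after dual therapy (-0.55 ± 0.30, adjusted p = 0.197) and Hk3 read 171, 94 and 142 (0.08 ± 0.43, adjusted p = 0.918). All of these libraries still lay above every contralateral library. Ldhb, at 370, 307 and 406, showed no called change either (-0.02, adjusted p = 0.954). Aldoc was uneven, with 327, 534 and 741, and was not called (0.51, adjusted p = 0.0873), except without dual replicate 1 (0.82, adjusted p = 0.00263). Aldoa read 2366, 1891 and 1937 (-0.22, adjusted p = 0.162), and Eno3 read 48, 66 and 50 (-0.08, adjusted p = 0.891).

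Of the rises, Aldh3a2 went to 613, 716 and 588 from 353, 442 and 452 (0.62 ± 0.13, adjusted p = 0.00286). Eno2 went to 192, 231 and 345 from 174, 124 and 181 (0.65 ± 0.21, adjusted p = 0.0315), and Dlat rose by 0.34 ± 0.11 (adjusted p = 0.0398). Eno2 lost its call without untreated replicate 2 or dual replicate 2 or 3 (adjusted p = 0.0523 to 0.168), and Dlat without untreated replicate 1 or 3 or any dual replicate (0.0514 to 0.132). Pgm2 lost its call without any of untreated replicates 1, 2 and 3 or dual replicates 1 and 2 (0.0572 to 0.119). Without dual replicate 2, or without dual replicate 3, 1 enzyme rose. Beside these values, the neuron genes summed to 6433 to 11811 and 10 of 12 rose, and all 14 proliferation genes fell to sums of 2044 to 2653. All 7 erythrocyte genes, 8 of 10 pericyte, 5 of 10 astrocyte and 1 of 8 oligodendrocyte genes rose. Of 12 macrophage genes 1 rose and 1 fell, and 0 of 12 T and NK cell genes were called. The part of these cells in the result was not tested. With endothelial identity scaling the median of all genes shifted by -0.34, 0 enzymes rose and rises made up 11.3% of all calls in place of 54.3%. Of the 15 endothelial identity genes themselves, 4 rose and 0 fell.

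Triple therapy against untreated tumour gave 6 enzymes (12.5%) that fell, against 15% of all genes, and 9 (18.8%) that rose, against 17.2%. Together 15 were called (31.2%), against 32.2% of all genes, and groups did not overlap for 22 (45.8%), against 44.0% of all genes. Those that fell were Ldha, Pgk1, Pkm, Eno3, Pgm1 and Gapdh. Those that rose were Eno2, Aldoc, Ldhb, Aldh3a2, Aldh7a1, Aldh2, Pfkm, Hk1 and Dlat, each of which had fallen in untreated tumour against contralateral tissue. The comparisons share the untreated libraries, so this overlap is not independent. The median log2 fold change was 0.15 for the enzymes and -0.02 for all genes.

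Eno2 read 511, 557 and 409 after triple therapy, more than in any untreated library and less than in any contralateral one (1.63 ± 0.21, adjusted p = 1.86e-05). Aldoc read 623, 792 and 591 (0.90 ± 0.21, adjusted p = 0.00292) and Ldhb read 558, 530 and 593 (0.62 ± 0.15, adjusted p = 0.00419), and both overlapped contralateral levels. Pfkm read 592, 750 and 609 (0.46 ± 0.12, adjusted p = 0.00889) and Hk1 read 1752, 1907 and 1930 (0.35 ± 0.10, adjusted p = 0.0137). Aldh2, at 1561, 1376 and 1982, rose by 0.61 ± 0.16 (adjusted p = 0.00665).

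Ldha fell to 1152 ± 100.9 (-0.62 ± 0.17, adjusted p = 0.00931) and Pgk1 read 267, 287 and 270 (-0.51 ± 0.14, adjusted p = 0.00979). Eno3 read 31, 36 and 20 (-1.0 ± 0.34, adjusted p = 0.0304) and Gapdh 559, 639 and 677 (-0.44 ± 0.16, adjusted p = 0.0385). Hk2, at 187, 276 and 142 (-0.42 ± 0.30, adjusted p = 0.292), and Hk3, at 148, 226 and 80 (0.15 ± 0.43, adjusted p = 0.816), were not called and stayed above every contralateral library. Adpgk read 192, 213 and 208 (-0.43, adjusted p = 0.0977), called without untreated replicate 3 (-0.66, adjusted p = 0.0134).

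Fewer enzymes fell when single libraries were left out: 2 without untreated replicate 2, 3 without untreated replicate 1 and 2 without triple replicate 1. Ldha was the 1 fall that kept its call whichever untreated or triple replicate was left out. Of the rises, Dlat lost its call without untreated replicate 1 or 3 or triple replicate 1 or 2 (adjusted p = 0.0791 to 0.153), Hk1 without untreated replicate 3 or triple replicate 3 (0.0581 and 0.0546) and Pfkm without triple replicate 2 (0.0577). With endothelial identity scaling 0 fell and 2 rose. Of the 15 endothelial identity genes themselves, 3 rose and 2 fell. As to other cells, 11 of 12 neuron and 5 of 10 astrocyte genes rose, to sums of 10389 to 14709 and 36497 to 44202, and all 14 proliferation genes fell, to sums of 2355 to 2707. Of 10 pericyte genes 9 rose, of 7 erythrocyte genes 6 and of 8 oligodendrocyte genes 2. Of 12 macrophage genes 1 rose and 2 fell, and of 12 T and NK cell genes 3 fell. Their part in the enzyme changes was not tested.

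**Figure D4:**
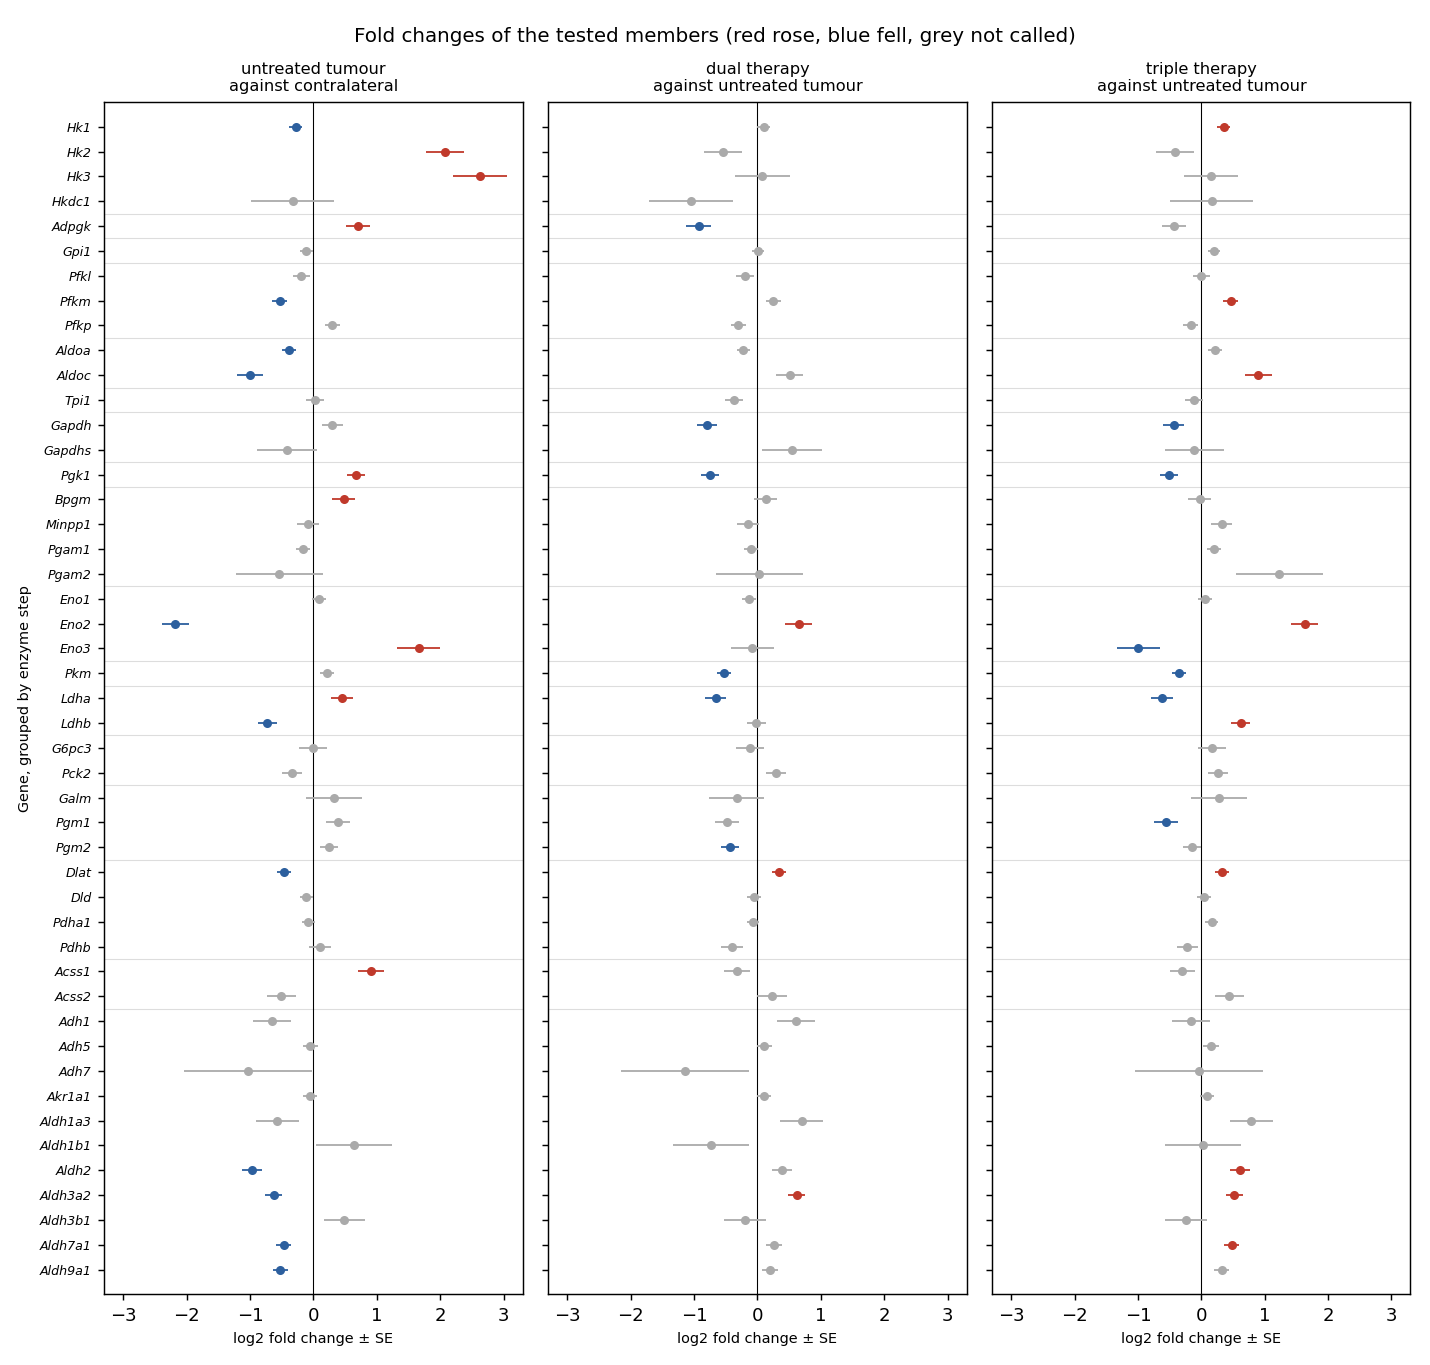
Log2 fold change ± SE of 47 of the 48 tested enzymes in 3 comparisons that share the untreated tumour libraries (red, rose; blue, fell; grey, not called in limma). Hk2 and Hk3 are far right in the left panel (2.08 and 2.63) and grey after either therapy, while Pgk1, Gapdh, Pkm and Ldha are blue after both.

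Triple and dual therapy were compared to ask what the PD-1 antibody adds. Eno2 was the single enzyme called, higher after triple therapy (511, 557 and 409) than after dual therapy (192, 231 and 345), with a log2 fold change of 0.97 ± 0.21 (adjusted p = 0.0365). That is 1 of 48 risen (2.08%) and 0 fallen, against 0.524% and 0.346% of all genes (0.869% in all), and 11 enzymes (22.9%) had an unadjusted p below 0.05, against 14.5% of all genes. The call was lost when any of dual replicates 1 and 2 or triple replicates 1, 2 and 3 was left out (adjusted p = 0.0625 to 0.158) and with only the 6 libraries compared (0.0683). Of the marker lists, 3 of 12 neuron genes and 1 of 12 macrophage genes rose and 0 of the others were called; their part was not tested.

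Ldhb averaged 361 ± 50.1 after dual and 560.3 ± 31.6 after triple therapy, with no overlap (0.64, adjusted p = 0.0531), and was called without dual replicate 3 (0.73, adjusted p = 0.0396). Aldoa averaged 2065 ± 262.0 and 2772 ± 150.7, also without overlap (0.43, adjusted p = 0.0685), and was called without dual replicate 1 (0.53, adjusted p = 0.0301). The groups did not overlap for 13 of 48 enzymes (27.1%) and for 18.7% of all genes. Log2 fold changes were positive for 38 of the 48, with a median of 0.20, where all genes had a median of 0.01. Hk2 (0.12) and Hk3 (0.08) had adjusted p values of 0.888 and 0.956.

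Genes that feed and control the pathway were read from a separate list of 21. In untreated tumour against contralateral tissue 5 of them rose, against 21.1% of all genes, and 9 fell, against 21.4% (median -0.37, and 0.01 for all genes). Myc, a transcription factor that drives glycolytic genes, had means of 13.7 ± 4.51 and 178 ± 55.4 (SD, n = 3) and rose (3.61 ± 0.45, adjusted p = 5.03e-06). Slc16a3, the lactate exporter MCT4, rose from 44.0 ± 35.3 to 159 ± 46.0 (2.09 ± 0.44, adjusted p = 8.15e-04), and Pfkfb3, which makes the activator of phosphofructokinase, rose from 876 ± 143 to 1491 ± 341 (0.75 ± 0.19, adjusted p = 0.00359). Pfkfb1 and Hif1a also rose. The glucose transporter gene of the barrier, Slc2a1, fell from 36200 ± 2358 to 18605 ± 4445 (-0.98 ± 0.18, adjusted p = 2.01e-04), and the lactate carriers Slc16a1 (-0.70) and Slc16a7 (-1.57) fell with it. Pdp1 and Pdp2, the phosphatases that switch pyruvate dehydrogenase on, fell by 1.18 ± 0.16 and 0.88 ± 0.15, and its inhibitory kinases Pdk2 and Pdk4 by 0.74 ± 0.16 and 1.04 ± 0.29 on the log2 scale.

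After dual therapy 6 of the 21 rose and 2 fell against untreated tumour, where 12.1% of all genes rose and 10.2% fell. After triple therapy 5 rose and 4 fell, where 17.2% of all genes rose and 15% fell. Myc (-2.61 ± 0.45 and -2.46 ± 0.45, adjusted p = 6.46e-04 and 4.79e-04) and Slc16a3 (-1.40 ± 0.44 and -1.24 ± 0.44, adjusted p = 0.0276 and 0.0362) fell after dual and triple therapy. Slc2a1 rose to 29065 ± 5461 and 34754 ± 3643 (adjusted p = 0.0127 and 6.49e-04), and Pdp1 and Pdp2 rose after both. Pfkfb3 averaged 1975 ± 262 and 1453 ± 434, without a call (adjusted p = 0.119 and 0.850). None of the 21 was called in contralateral against sham tissue or in triple against dual therapy.

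Several of these enzymes have close copies in the genome. Of the stretches of 50 bases in the GENCODE M21 transcripts of Pgk1, 53.9% also occur in transcripts of another gene, and the share was 36.2% for Pgam1, 26% for Eno1, 25.8% for Pkm, 24.7% for Gapdh and 21% for Ldhb. Levels of these genes are uncertain, since no source used here gives how reads with several matches were counted. For 33 of the 50, Hk2, Hk3, Eno2 and Aldoc among them, the share was under 1%. For Ldha it was 9.03%. The part of such copies in the changes was not tested.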

How the data were processed

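The deposited table holds the authors' normalised score for 27174 genes in 15 libraries, rounded to whole numbers. Per the labels' protocols, 100 ng of total RNA went into a stranded kit. The submitters' processing notes name STAR 2.4.0a, featureCounts 1.4.5-p1, DESeq2 and GRCm38 (mm10). No source used here gives the strand setting of the counting, so overlapping genes are uncertain. The scores are not read counts: gaps between low values in 6 libraries put 1 read at 1.07 to 1.87 units, and depth in the other libraries was not estimated. Low scores rest on few reads.

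Members were the rows whose KEGG cell holds the pathway's name. Members and gene lists were chosen with earlier results of these data known. Scores were transformed to log2(score + 1), which understates changes of low genes. Genes scoring 10 or more in 3 or more libraries (19668) entered limma-trend (limma 3.58.1 under R 4.3.3), with all 15 libraries fitted together and 1 mean per group (10 residual and 8.26 prior degrees of freedom). P-values were adjusted by Benjamini-Hochberg over all genes tested, and a gene was called below 0.05. Replicates are pools of mice, and p-values cover the spread between pools. Values per library were given for the 12 members of the main path and 4 others with the smallest F-test p. Ldha, Pkm and further members were added after their values were seen. On data simulated for untreated tumour against contralateral (18992 genes), 74.0% of 2-fold and 100% of 4-fold changes were recovered. The simulation gave every gene the same spread beyond counting noise. It changed only a small set of genes, none of them with the lowest scores. The rates therefore need not hold for the real libraries.

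Replicate numbers are shared between groups without a stated pairing. No block was used for that reason. Same-numbered untreated and contralateral libraries had correlations of their deviations of -0.0553, 0.0208 and 0.0695. For libraries with different numbers these were -0.0823 to 0.0533. With 3 libraries per group these correlations cannot show whether the same mice were used. Alternatives were a pseudocount of 10, no filter, quantile normalisation, endothelial identity scaling, a replicate block, quality weights, only the 6 libraries compared and each replicate left out. Leaving out untreated replicate 2 and dual replicate 2 together was added after seeing the data. Exon lengths came from GENCODE M21, which held 27114 of the 27174 identifiers and gave 33 of the 50 members the same coordinates. Printed coordinates are those of the table. The values of 1 tested enzyme are not reported here.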

Additional observations from a re-analysis of the deposited data

How the results depend on the processing

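Of 4032 refits of single enzymes, 3835 kept their side of the threshold, 141 lost and 53 gained a call. Any change of sign without a call in either fit is among the 3835 and was not counted separately. The other 3 changed sign and lost their call, all with endothelial identity scaling. They were Aldoa (0.08) and Hk1 (0.18) in untreated tumour against contralateral and Dlat (-0.01) in dual therapy against untreated tumour. That scaling gave 13 risen and 1 fallen in untreated tumour against contralateral, 5 fallen against sham, 0 risen after dual therapy, and 2 risen and 0 fallen after triple therapy. It shifted the median of all genes by 0.46, 0.07, -0.39, -0.34, -0.04 and 0.30 in the 6 comparisons, in the order of the report. Quantile normalisation shifted it by -0.16 and -0.13 in the first 2. In contralateral against sham, rises made up 58.8% of all calls, 80.7% after quantile normalisation and 6.02% with endothelial identity scaling.

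Leaving out 1 replicate gave 5 to 11 risen in untreated tumour against contralateral, 1 to 3 risen after dual and 2 to 5 fallen after triple therapy, and 0 to 2 risen in triple against dual therapy. With only the 6 libraries compared, 1 rose after dual therapy. In triple against dual therapy 1 enzyme rose, 2 with a pseudocount of 10 or quality weights, and 0 with quantile normalisation, endothelial identity scaling, only the 6 libraries, or without the libraries that stand apart, where 2 fell after triple therapy. With the replicate block, whose numbers pair nothing by the labels, counts were 9 risen and 12 fallen in untreated tumour against contralateral, 8 risen and 11 fallen in untreated tumour against sham, 2 risen and 6 fallen in dual therapy against untreated tumour, 9 risen and 6 fallen in triple therapy against untreated tumour, 1 risen in triple against dual therapy, and 20 that differed among the 5 groups, all within 1.5 times those without it. Low scores limit Hkdc1, Pgam2 and Adh7.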
